A study of Mus musculus with 35 samples.

Results

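The comparison described here is that of antibiotic treatment with its control in the medial prefrontal cortex of wild-type mice. Its members were taken by label, as the libraries of genotype WT with the treatment abx or control, and they number 10 of the 35 libraries in the series: 4 WT_abx and 6 WT_control. The series profiled wild-type (WT) and Shank3-deficient (KO) mice given antibiotics, acetate, both, or water as the control, and bulk RNA from tissue punches was sequenced. WT_control held 3 libraries labelled male (numbers 1 to 3) and 3 labelled female (4 to 6), and WT_abx held 2 labelled male (1 and 2) and 2 labelled female (3 and 4). Neither group received acetate. The strain, the age, the antibiotics with their dose and duration, and whether each library came from its own animal are not given in the sources used. The p-values below therefore measure library-to-library spread, which may be technical. Library numbers follow the order of the sample records and pair nothing.

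Antibiotics given to mice remove much of the gut bacterial community, and with it bacterial products such as short-chain fatty acids, of which acetate is the most abundant. The medial prefrontal cortex takes part in social behaviour. Its tissue mixes excitatory neurons of upper and deep layers, interneurons, glia and vessel cells, so a level in bulk RNA reflects both the number of cells of a type and the RNA in each, and fewer cells of a type cannot be told apart from less RNA per cell.

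The values are log2 CPM as deposited (the log2 of read counts scaled to a common library size), for 14870 genes, and the reads recovered per library were 20.1 to 28.03 M reads in controls and 19.25 to 24.83 M under abx. RNA integrity numbers were 8.9 to 9.3 in the controls and 8.9 to 9.2 under abx. Shank3, the targeted scaffold gene, was at 8.24 to 8.85 log2 CPM in the 6 controls and at 8.68, 8.30 and 8.27 in WT_abx 1 to 3, and 16 KO libraries lay at 4.07 to 5.11. The library labelled WT_abx 4 lay between, at 7.48. Its Acr, the neighbouring gene that is high in KO libraries (5.04 to 5.78), stood at 4.56, whereas the other 9 libraries had -0.46 to 0.58. The main counts and the folds of some leading genes are therefore given with and without that library. In the WT comparison over both sexes, a fold with no second value uses all 4 abx libraries. Among the 81 genes of this comparison named here, the fold of Acr alone changed sign without that library. Y-linked genes went against the label in WT_abx 3, labelled female: their level was 93.0% of the mean of the male controls, whereas the library labelled WT_abx 4 had 6.49% and the female controls 5.33 to 7.39%. The tissue label was checked against 10 pan-neuronal markers, all measured, which summed to 7490 to 8550 CPM in controls and 7000 to 8580 under abx. Their mean level relative to each gene's mean over 35 libraries was -0.11 to 0.11 in controls and -0.20 to 0.07 under abx.

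Each gene was tested with limma, a linear model with a moderated test, in 1 fit of all 35 libraries with the labelled sex as a term. No gene passed an adjusted p (Benjamini-Hochberg) of 0.05: 0 of 14870, or 0%, with a smallest adjusted p of 0.156. At an unadjusted p under 0.05 there were 1345 genes (9.05%), where 744 would be counted with no difference anywhere. Of these, 607 were higher (4.08% of all genes) and 738 lower (4.96%). Without the library labelled WT_abx 4 the count past the threshold was again 0 (0%), with a smallest adjusted p of 0.0953, and 422 genes were higher (2.84%) and 545 lower (3.67%) at an unadjusted p under 0.05. The fits with and without it shared 702 genes of the same sign, 52.2% of the 1345 and 72.6% of the 967. A limma fit with voom weights also called 0 genes. The median log2 fold of all genes was 0.005 (abx minus control, as for every fold below), and 51.4% of genes had a fold above 0. In 124 genes (0.834%) all 4 abx libraries lay above all 6 controls, and in 194 (1.3%) all 4 lay below them. Words such as higher and lower in the paragraphs below describe measured values or counts at an unadjusted p under 0.05. No gene in the comparison passed the adjusted threshold.

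Among genes with the smallest p, the higher side was led by Tipin, a replication fork protein that partners Timeless (chromosome 9, 64281581 to 64305424, GRCm38). Tipin ran from 2.43 to 2.92 log2 CPM in the 6 controls, with a median of 2.67, and read 3.32, 3.25, 3.11 and 3.27 in the 4 abx libraries. The groups did not overlap, and the log2 fold was 0.56 ± 0.11 (SE), or 1.47-fold (adjusted p = 0.156, limma). It was 0.55 ± 0.12 without the library labelled WT_abx 4. Hmgb3, a chromatin protein of the high mobility group, read 4.94, 4.86, 4.98 and 5.08 log2 CPM in the 4 abx libraries, against 4.38 to 4.76 (median 4.59) in the 6 controls. All 4 lay above the controls (log2 fold 0.38 ± 0.08, and 0.32 ± 0.09 without the library labelled WT_abx 4). Ogg1, the glycosylase that removes oxidised guanine from DNA, had control values of 1.83 to 2.15 log2 CPM (median 2.08) and abx values of 2.46, 2.46, 2.71 and 2.61. Its groups were separate as well, with a log2 fold of 0.53 ± 0.12 at a low level. Zfp316, a zinc finger gene, read 5.50, 5.53, 5.56 and 5.84 log2 CPM in the 4 abx libraries, against 4.96 to 5.50 (median 5.21) in the 6 controls, and WT_abx 1 and the highest control were equal to 2 decimals (log2 fold 0.36 ± 0.09).

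The other 8 genes on the higher side were Zc3h6 (log2 fold 0.61 ± 0.13), Zfp362 (0.33 ± 0.08), Klhdc9 (0.72 ± 0.18), Eny2 (0.24 ± 0.06), Klf11 (0.47 ± 0.12), Cirbp (0.63 ± 0.17), Smim19 (0.35 ± 0.09) and Zranb1 (0.20 ± 0.06). Eny2 encodes a subunit that the histone-modifying SAGA complex and a messenger RNA export complex share. Adjusted p-values of these 12 genes ran from 0.156 to 0.242 by limma. In Zfp362, Eny2 and Smim19 all abx libraries lay above all controls, whereas the groups overlapped in Zc3h6, Klhdc9, Klf11, Cirbp and Zranb1. Every one of the 12 kept a positive fold without the library labelled WT_abx 4, in a fit that shares all other libraries with the one that picked them.

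On the lower side, Dnajc1, a co-chaperone of the endoplasmic reticulum (ER) membrane, ran from 4.80 to 5.19 log2 CPM in the 6 controls, with a median of 5.10, and read 4.64, 4.41, 4.37 and 4.81 in the 4 abx libraries. The library labelled WT_abx 4 lay within the control range, and the other 3 were below it (log2 fold -0.47 ± 0.10, adjusted p = 0.156 by limma). Without it the log2 fold was -0.55 ± 0.10, and the adjusted p of 0.0953 was the smallest in that fit. Ago3, 1 of the Argonaute proteins that carry microRNAs, read 5.55, 5.18, 5.18 and 5.38 log2 CPM in the 4 abx libraries, against 5.64 to 6.20 (median 5.95) in the 6 controls. Its groups were separate, at a log2 fold of -0.61 ± 0.12 (1.52-fold lower). Hif1an, the oxygen-dependent hydroxylase that restrains the hypoxia factor HIF1A, had control values of 5.89 to 6.06 log2 CPM (median 5.97) and abx values of 5.73, 5.67, 5.57 and 5.64, with no overlap and a log2 fold of -0.32 ± 0.07. Sik2, a salt-inducible kinase, ran from 5.22 to 5.87 log2 CPM in the 6 controls, with a median of 5.52, and read 4.91, 4.91, 4.99 and 5.16 in the 4 abx libraries. Again every abx library was below every control (-0.54 ± 0.12).

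Derl3, a part of the machinery that moves misfolded proteins out of the ER, had the largest log2 fold on this side. It read -0.40, -1.24, -0.84 and -0.19 log2 CPM in the 4 abx libraries, against 0.14 to 0.82 (median 0.60) in the 6 controls. The groups were separate, at a low level. The log2 fold was -1.20 ± 0.26 (2.29-fold lower), and it was -1.34 ± 0.29 without the library labelled WT_abx 4. Others on this side were Gramd1b (log2 fold -0.31 ± 0.07), Cog6 (-0.23 ± 0.05), Mmaa (-0.34 ± 0.08), Hectd2 (-0.42 ± 0.10), Noc3l (-0.31 ± 0.07) and Phf21b (-0.70 ± 0.17). Adjusted p-values of these lower genes ran from 0.156 to 0.177 by limma. Cog6, a subunit of a Golgi tethering complex, had little spread among the controls, 5.42 to 5.49 log2 CPM, and read 5.14, 5.31, 5.22 and 5.21 under abx, all below them.

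**Figure D1:**
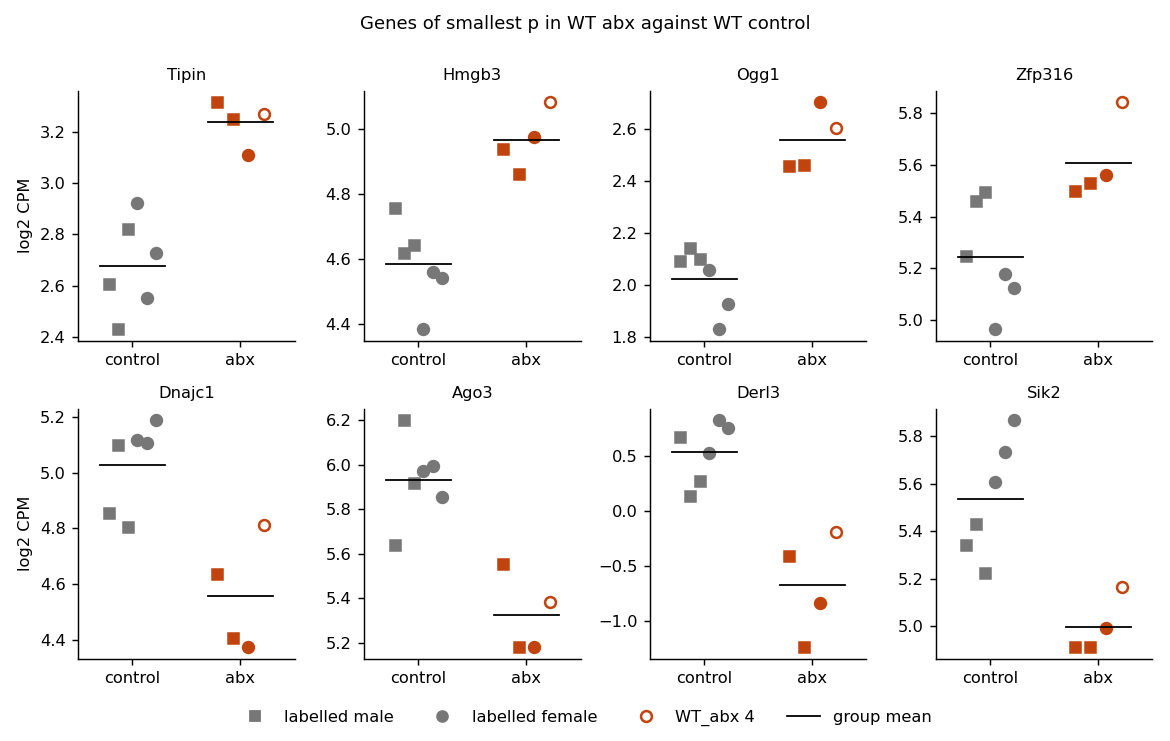
Log2 CPM (y axis) of 8 of the genes with the smallest p, in each of the 6 control and 4 abx WT libraries. Squares are libraries labelled male, circles labelled female, the open circle is the library labelled WT_abx 4 and the line is the group mean. The groups are separate for Tipin, Hmgb3, Ogg1, Zfp316, Ago3, Derl3 and Sik2, and for Dnajc1 the library labelled WT_abx 4 falls just inside the control range.

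Leaving out the library labelled WT_abx 4 brought 4 other genes among the 6 of smallest p on each side. Txnl4b, a splicing factor relative, ran from 3.43 to 3.70 log2 CPM in the 6 controls, with a median of 3.56, and read 3.91, 3.95, 3.84 and 3.60 in the 4 abx libraries, and its log2 fold was 0.27 ± 0.08 with that library and 0.34 ± 0.08 without it. Sfxn1, a mitochondrial serine transporter, had folds of 0.19 ± 0.06 and 0.24 ± 0.06, and Omg, a myelin-associated surface glycoprotein, 0.21 ± 0.07 and 0.28 ± 0.07. Spice1, a centriole and spindle protein, had control values of 3.41 to 3.86 log2 CPM (median 3.63) and abx values of 3.18, 3.33, 3.22 and 3.66 (log2 folds -0.29 ± 0.09 and -0.40 ± 0.09). In Txnl4b, Sfxn1 and Spice1 the 3 remaining abx libraries were separate from the controls, and in Omg they were not. 1 gene passed the threshold when WT_abx 1 was left out: Tet3, a dioxygenase that oxidises methylated cytosine, with a log2 fold of -0.46 ± 0.13 on all libraries. Tet3 ran from 6.23 to 6.94 log2 CPM in the 6 controls, with a median of 6.62, and read 6.6, 5.72, 6.06 and 6.17 in the 4 abx libraries. WT_abx 1 lay within the control range and the other 3 below it.

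Genes of the unfolded protein response and of folding in the ER formed the group with the largest share of lower members. This response senses misfolded proteins in the ER through ATF6, IRE1 with its product XBP1, and PERK, and raises chaperones such as Hspa5 (BiP). Of 48 measured list members, 16 were lower and 0 higher at an unadjusted p under 0.05, beside 4.96% and 4.08% of all genes. The list's median log2 fold was -0.11, and 33 of its 48 folds were negative. Without the library labelled WT_abx 4 the counts were 12 lower and 0 higher, with a median of -0.08. Each single library left out in turn gave 12 to 19 lower members, and 0 to 3 higher ones. The lower count fell further when 5 libraries with intermediate Shank3 or Y-linked genes against the sex label were left out together. These were WT_abx 3, the library labelled WT_abx 4, and WT_acetate 2, WT_acetate 4 and WT_acetate 5. Without them 4 members were lower and 0 higher, with 36 negative folds of 48 and a median of -0.05.

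Several of these genes carry an ER stress element before their start, the site that ATF6 binds together with NF-Y. The element searched was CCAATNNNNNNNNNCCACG, on both strands, in the 250 bases before each start in the RefSeq promoter table (GRCm38.p6). It was found in 37 of 32851 promoters (0.113%). The 6 list members that held it and were lower at an unadjusted p under 0.05 are shown because they combine the element with a lower level. Capitals mark the element, and each sequence runs 5′ to 3′ on the gene's own strand. The windows are Hspa5 at chr2:34771995-34772073 (plus strand), Calr at chr8:84847045-84847123 (minus), Derl3 at chr10:75893212-75893290 (plus), Hsp90b1 at chr10:86705608-86705686 (minus), Pdia6 at chr12:17266461-17266539 (plus) and Creld2 at chr15:88819490-88819568 (plus).
Hspa5: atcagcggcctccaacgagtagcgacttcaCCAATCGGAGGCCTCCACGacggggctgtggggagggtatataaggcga
Creld2: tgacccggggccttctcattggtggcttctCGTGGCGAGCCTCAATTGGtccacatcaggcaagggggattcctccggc
Derl3: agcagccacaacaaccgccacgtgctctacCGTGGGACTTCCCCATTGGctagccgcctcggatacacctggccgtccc
Pdia6: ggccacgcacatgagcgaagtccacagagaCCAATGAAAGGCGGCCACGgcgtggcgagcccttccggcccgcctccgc
Calr: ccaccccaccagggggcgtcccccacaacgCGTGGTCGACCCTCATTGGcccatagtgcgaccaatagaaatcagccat
Hsp90b1: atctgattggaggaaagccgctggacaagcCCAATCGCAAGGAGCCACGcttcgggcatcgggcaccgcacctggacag

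In Hspa5, Pdia6 and Hsp90b1 the element reads in the direction of the gene, and in Creld2, Derl3 and Calr in the opposite direction. The element starts 65 bases before the start site in Hspa5 and 212 bases before it in Hsp90b1. Among all measured genes, 17 held it. Of these, 15 had a negative fold, 7 were lower and 0 higher at an unadjusted p under 0.05, and the median was -0.21. The 9 that belong to the list included 6 of the 7, and among 8 genes outside the list 6 were negative and 1, Adcy3 (an adenylyl cyclase), was lower (log2 fold -0.17 ± 0.08). Without the library labelled WT_abx 4 the 17 genes had 16 negative folds and a median of -0.20. A heat shock element, GAANNTTCNNGAA or TTCNNGAANNTTC on either strand, was in 153 promoters (0.466%). The 49 measured genes that held it had 28 negative folds, 2 lower and 0 higher, with a median of -0.005. Only 3 of them belong to the list of cytosolic heat shock chaperones described below, where 35 members had a promoter searched. Those 3 had negative folds, and 0 were lower at an unadjusted p under 0.05. The 2 sets of genes thus differ in their share of list members. A match is a description of letters and not evidence of binding.

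Hspa5, the main chaperone of the ER lumen, ran from 7.64 to 8.48 log2 CPM in the 6 controls, with a median of 8.32, and read 7.89, 7.71, 7.56 and 7.36 in the 4 abx libraries. Controls 2 and 3 were as low as the abx libraries, and the other 4 controls were higher (log2 fold -0.50 ± 0.17, or -0.40 ± 0.19 without the library labelled WT_abx 4). Creld2, a secreted ER stress protein, read 3.93, 3.66, 3.37 and 3.62 log2 CPM in the 4 abx libraries, against 3.81 to 4.58 (median 4.13) in the 6 controls (log2 fold -0.49 ± 0.16, or -0.48 ± 0.18 without the library labelled WT_abx 4). Pdia6, a disulphide isomerase, had control values of 6.70 to 7.37 log2 CPM (median 7.22) and abx values of 6.84, 6.82, 6.62 and 6.56 (log2 fold -0.39 ± 0.15, or -0.32 ± 0.16 without the library labelled WT_abx 4). Its groups overlapped, as did those of Creld2. The transcription factor Xbp1 ran from 6.30 to 6.81 log2 CPM in the 6 controls, with a median of 6.72, and read 6.21, 6.30, 6.26 and 6.23 in the 4 abx libraries (log2 fold -0.36 ± 0.11, or -0.34 ± 0.12 without the library labelled WT_abx 4). Of the 4 abx libraries of Xbp1, 3 were below every control, and WT_abx 2 matched the lowest control to 2 decimals. Xbp1 and the genes of the printed windows were picked with their values in view.

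The 3 list members with the smallest p, Derl3 (above), Derl2 and Atf6b, were the 3 in which the groups did not overlap. Derl2, a channel protein of ER export, read 4.42, 4.63, 4.44 and 4.66 log2 CPM in the 4 abx libraries, against 4.73 to 4.77 (median 4.75) in the 6 controls (log2 fold -0.21 ± 0.06, or -0.25 ± 0.07 without the library labelled WT_abx 4). Its 6 controls lay close together. Atf6b, the relative of the sensor ATF6, had control values of 5.95 to 6.17 log2 CPM (median 6.05) and abx values of 5.76, 5.89, 5.85 and 5.80 (log2 fold -0.23 ± 0.07, or -0.22 ± 0.08 without the library labelled WT_abx 4). Adjusted p-values were 0.166, 0.263 and 0.271 by limma. The list level, the mean over its members of log2 CPM minus each gene's mean over 35 libraries, was 0.22, -0.08 and -0.04 in controls 1 to 3, 0.14, 0.18 and 0.15 in controls 4 to 6, and -0.02, -0.04, -0.09 and -0.06 in the 4 abx libraries. Controls 2 and 3 fell inside the abx range, and the other 4 controls lay above it.

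Cytosolic heat shock chaperones also had more lower than higher members. These proteins hold and refold clients in the cytosol under the control of Hsf1. Of 41 members, 12 were lower and 0 higher, 34 folds were negative and the median was -0.08. The lower count was 7 without the library labelled WT_abx 4, and 8 to 16 without any other single library. It was 2 without the 5 libraries named for the ER list (median -0.03). Ahsa2, a relative of an Hsp90 co-chaperone, ran from 4.93 to 5.25 log2 CPM in the 6 controls, with a median of 5.18, and read 4.92, 4.93, 4.57 and 4.90 in the 4 abx libraries (log2 fold -0.30 ± 0.09, or -0.31 ± 0.10 without the library labelled WT_abx 4). All its abx libraries but WT_abx 2 were below every control. Hspa1b, the stress-inducible Hsp70, read 4.04, 3.63, 3.59 and 4.08 log2 CPM in the 4 abx libraries, against 4.12 to 5.12 (median 4.65) in the 6 controls, with separate groups and a log2 fold of -0.79 ± 0.23. It is uncertain because Hspa1a, with a log2 fold of -0.44, is a near-identical copy. Chordc1, an Hsp90 partner, had a log2 fold of -0.42 ± 0.13 and Dnajb5 -0.50 ± 0.16, and Hsf1 itself -0.31 ± 0.10. Dnajb5 and Hsf1 were named after their values were seen.

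**Figure D2:**
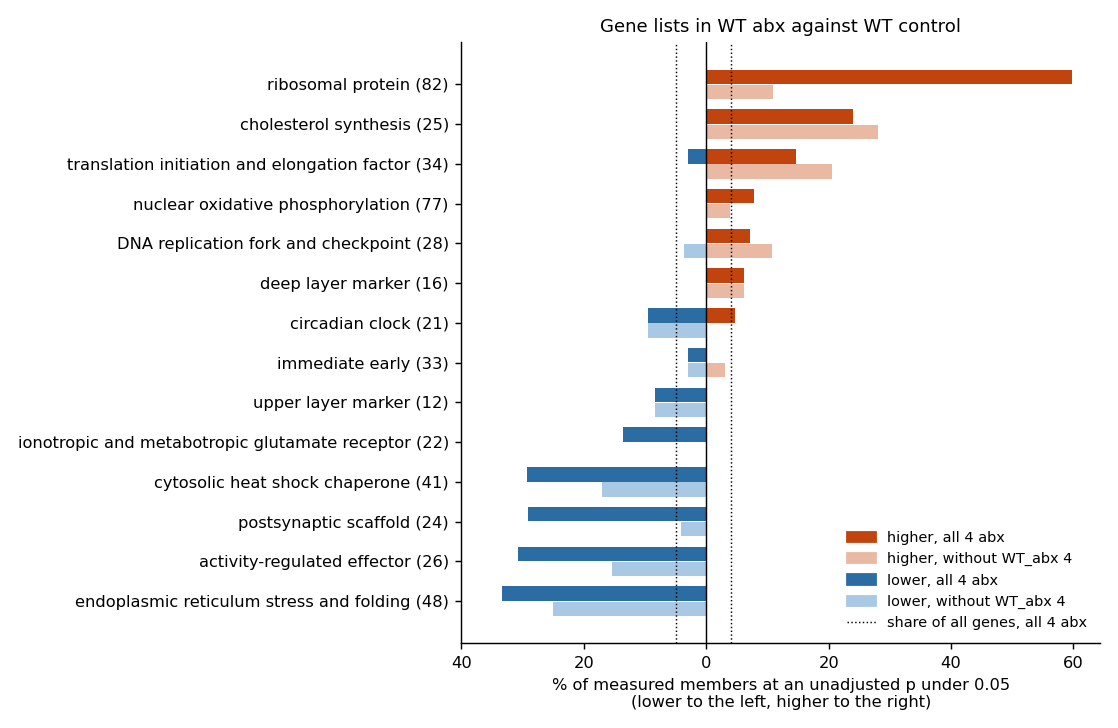
Share of measured members (number in brackets) of 14 gene lists at an unadjusted p under 0.05 in WT abx against WT control, lower to the left and higher to the right. Dark bars use all 4 abx libraries, pale bars leave out the library labelled WT_abx 4, and dotted lines are the shares of all genes, 4.96% lower and 4.08% higher. The dark ribosomal protein bar reaches 59.8% and its pale bar is far shorter, whereas the pale bar of the ER list is closest to its dark bar among the lists with 7 or more lower members.

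Ribosomal protein genes, which encode the parts of the cytosolic ribosome, gave the largest count on the higher side. Of 82 members, 49 were higher and 0 lower at an unadjusted p under 0.05, 80 folds were positive and the median log2 fold was 0.17. Leaving out the library labelled WT_abx 4 gave a count of 9, leaving out WT_abx 1 gave 25, and the count was 69 without WT_abx 3, and the same 80 to 2 split of signs was counted without the library labelled WT_abx 4. Without the 5 libraries named for the ER list, 39 were higher (median 0.18). The folds were small. Rpl4 had control values of 8.32 to 8.43 log2 CPM (median 8.39) and abx values of 8.57, 8.54, 8.45 and 8.64 (log2 fold 0.17 ± 0.05, or 0.14 ± 0.06 without the library labelled WT_abx 4). Its groups were separate. Many ribosomal protein genes have near-identical pseudogenes, so their counts are uncertain. The list level was 0.14, 0.07, -0.07 and 0.21 in the 4 abx libraries, and the controls spanned -0.15 to 0.11.

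Translation factors, which load and move the ribosome, had 5 higher and 1 lower of 34, with a median of 0.07 (7 and 0 without the library labelled WT_abx 4). Without WT_abx 2 the higher count was 3, and without control 1 it was 8. Eif5, a start codon selection factor, ran from 7.49 to 7.68 log2 CPM in the 6 controls, with a median of 7.60, and read 7.76, 7.73, 7.81 and 7.71 in the 4 abx libraries (log2 fold 0.16 ± 0.05), and its groups were separate. Eif3f (log2 fold 0.17 ± 0.06) and Eif4b (0.15 ± 0.06) overlapped. Nuclear genes of oxidative phosphorylation, the respiratory chain and ATP synthase, had 70 positive folds of 77 and a median of 0.08, with 6 higher and 0 lower. Leaving out the library labelled WT_abx 4 gave 3, and the count was 10 without WT_abx 3. Ndufa2, a complex I subunit, read 5.09, 5.17, 4.94 and 4.95 log2 CPM in the 4 abx libraries, against 4.67 to 4.92 (median 4.85) in the 6 controls, all above the controls (log2 fold 0.23 ± 0.07). Mitochondrial ribosomal protein genes had 0 higher and 1 lower of 75, and 4 and 0 without the library labelled WT_abx 4. The 13 mitochondrially encoded genes had 0 of either.

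Cholesterol synthesis genes make sterol from acetyl-CoA by way of mevalonate, and in brain they are active in myelin-forming cells and astrocytes. Of 25 members, 6 were higher and 0 lower, 21 folds were positive and the median was 0.13. Leaving out the library labelled WT_abx 4 gave 7 (median 0.18), and the count was 3 without WT_abx 3 and 3 without control 4. Mvk, mevalonate kinase, ran from 3.90 to 4.32 log2 CPM in the 6 controls, with a median of 4.07, and read 4.33, 4.42, 4.25 and 4.45 in the 4 abx libraries (log2 fold 0.28 ± 0.08, or 0.23 ± 0.09 without the library labelled WT_abx 4), with WT_abx 3 within the control range. Nsdhl, a sterol dehydrogenase, read 4.26, 4.44, 4.32 and 4.24 log2 CPM in the 4 abx libraries, against 4.01 to 4.18 (median 4.12) in the 6 controls, separate from the controls (log2 fold 0.20 ± 0.07, or 0.23 ± 0.08 without the library labelled WT_abx 4). Acat2, which condenses acetyl-CoA at the entry to the pathway, had control values of 5.06 to 5.40 log2 CPM (median 5.23) and abx values of 5.29, 5.55, 5.55 and 5.46 (log2 fold 0.23 ± 0.09). The list level was 0.02 to 0.08 in the 4 abx libraries and -0.20 to -0.03 in the 6 controls, so the groups were separate at the level of the list.

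A list built around Tipin and its fork partners gave a like separation. DNA replication fork genes had levels of 0.03 to 0.04 in WT_abx 1 to 3 and 0.14 in the library labelled WT_abx 4, against -0.12 to -0.03 in the controls. Of 28 measured members 25 had positive folds (median 0.11). At an unadjusted p under 0.05, 2 were higher (7.14%, beside 4.08% of all genes) and 0 lower. The 2 were Tipin and Mcm2 (log2 fold 0.28 ± 0.11), a helicase subunit. Without the library labelled WT_abx 4 the counts were 3 and 1, and without control 2 or WT_abx 1 a single member was higher. The list was chosen with the value of Tipin known, and its level includes Tipin. Argonaute and microRNA processing genes had 0 higher and 2 lower of 15. These were Ago3 and Ago2, and Ago2, the Argonaute that cuts its targets, read 6.67, 6.45, 6.51 and 6.58 log2 CPM in the 4 abx libraries, against 6.70 to 6.98 (median 6.83) in the 6 controls, all below the controls (log2 fold -0.29 ± 0.09, or -0.29 ± 0.10 without the library labelled WT_abx 4). Their list median was -0.02.

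Genes that neurons switch on with activity had lower medians over both labelled sexes together, and their levels divided the controls by labelled sex. The immediate early level was 0.15 to 0.30 in male and 0.74 to 0.89 in female controls. For activity-regulated effectors it was -0.175 to 0.186 and 0.348 to 0.529. Activity-regulated effectors, the late genes such as Bdnf that act at synapses, had 8 lower and 0 higher of 26, with 22 negative folds and a median of -0.23. Leaving out the library labelled WT_abx 4 gave 4, as did leaving out WT_abx 2 or WT_abx 3, and the count was 3 without control 5 or control 6. It was 0 without the 5 libraries named for the ER list (median -0.13). Inhba, a subunit of activin, ran from 1.97 to 3.89 log2 CPM in the 6 controls, with a median of 3.27, and read 2.69, 1.95, 1.99 and 1.58 in the 4 abx libraries (log2 fold -1.06 ± 0.35, or -0.88 ± 0.38 without the library labelled WT_abx 4). Pcsk1, a prohormone convertase, had control values of 5.35 to 6.01 log2 CPM (median 5.63) and abx values of 5.41, 5.0, 5.50 and 4.81 (log2 fold -0.49 ± 0.18, or -0.34 ± 0.19 without the library labelled WT_abx 4), and Spred1, an inhibitor of the MAP kinase cascade, had a fold of -0.29 ± 0.11. In all 3 genes the groups overlapped, and Bdnf, which spanned 4.89 to 6.43 in controls, had a fold of -0.52 ± 0.32, or -0.27 ± 0.34 without the library labelled WT_abx 4. Immediate early genes, the first to respond to activity, had 1 lower (Homer1) and 0 higher of 33, with a median of -0.25 and SEs as wide as 0.51 for Arc (fold -0.48 ± 0.51). Without WT_abx 1 that count was 8, and it was 3 or 4 without a male control. Jun (0.29 ± 0.14) had the opposite sign to Fosb (-0.64 ± 0.32).

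Postsynaptic scaffold genes, the group to which Shank3 belongs, had 7 lower and 0 higher of 24, with a median of -0.10, and 1 lower without the library labelled WT_abx 4. Without control 5 the count was 3, and it was 0 without the 5 libraries named for the ER list (median -0.02). Homer1, which links Shank proteins to glutamate receptors, ran from 7.45 to 8.79 log2 CPM in the 6 controls, with a median of 8.48, and read 7.93, 7.43, 7.61 and 7.04 in the 4 abx libraries (log2 fold -0.72 ± 0.23, and -0.53 ± 0.24 without that library). Controls 2 and 3 were in the abx range and the other 4 controls above it. Shank2 read 8.12, 7.73, 7.67 and 7.74 log2 CPM in the 4 abx libraries, against 7.79 to 8.36 (median 8.18) in the 6 controls (log2 fold -0.31 ± 0.12, or -0.27 ± 0.14 without the library labelled WT_abx 4), Lrrc7 had a fold of -0.27 ± 0.12 and Shank1 -0.16 ± 0.12. For Shank3 the fold was -0.39 ± 0.17 with the library labelled WT_abx 4 and -0.16 ± 0.16 without it. Glutamate receptors had 3 lower of 22, among them Gria2 (-0.15 ± 0.07) and Grin2b (-0.27 ± 0.13), and 0 without the library labelled WT_abx 4 or without control 5. A single one was lower without control 2, control 6 or WT_abx 1. Neurotrophin and plasticity genes had 2 lower of 22, and 0 without the library labelled WT_abx 4. GABA receptors had 0 of 14.

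Some clock and cold-inducible genes differed between male and female controls, while the level of the whole clock list did not divide them (-0.01 to 0.15 in male and 0.07 to 0.11 in female controls). The clock runs on activators such as Arntl (BMAL1), which drive the repressor Per2 and the output factor Dbp. Per2 ran from 5.72 to 6.19 log2 CPM in the 6 controls, with a median of 6.09, and read 5.33, 5.36, 5.57 and 5.39 in the 4 abx libraries. Every abx library was below every control (log2 fold -0.61 ± 0.24, adjusted p = 0.41 by limma). Arntl read 5.04, 4.88, 4.79 and 4.53 log2 CPM in the 4 abx libraries, against 4.84 to 5.65 (median 5.28) in the 6 controls (log2 fold -0.44 ± 0.15, or -0.33 ± 0.16 without the library labelled WT_abx 4), and its 3 female controls read 5.35, 5.48 and 5.65 where the 3 male controls read 5.22, 4.95 and 4.84. Dbp went the other way: 5.69, 5.65 and 5.53 in the female controls, 6.08, 6.50 and 6.38 in the male controls, and 6.16, 6.33, 6.53 and 6.76 under abx (log2 fold 0.47 ± 0.19, or 0.37 ± 0.21 without the library labelled WT_abx 4). Of 21 clock genes, 1 was higher (Dbp) and 2 lower (Arntl and Per2), and the lower count was 5 without control 4, 4 without WT_abx 1 and 2 or 3 without any other library. Dbp did not reach that p without the library labelled WT_abx 4 or without control 6.

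Cirbp and Rbm3, RNA-binding proteins that rise when cells cool, followed the order of Dbp. Cirbp ran from 5.10 to 5.86 log2 CPM in the 6 controls, with a median of 5.33, and read 5.66, 5.96, 6.16 and 6.42 in the 4 abx libraries (log2 fold 0.63 ± 0.17, 0.48 ± 0.18 without the library labelled WT_abx 4). Rbm3 read 6.35, 6.45, 6.67 and 6.85 log2 CPM in the 4 abx libraries, against 5.66 to 6.43 (median 6.02) in the 6 controls (log2 fold 0.53 ± 0.17, or 0.42 ± 0.18 without the library labelled WT_abx 4). The female controls read 5.10, 5.17 and 5.33 for Cirbp, below each of the 3 male controls. Rbm3 was named after its values were seen. Times of day and temperatures at collection are not given in the sources, and their part in these values was not tested.

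**Figure D3:**
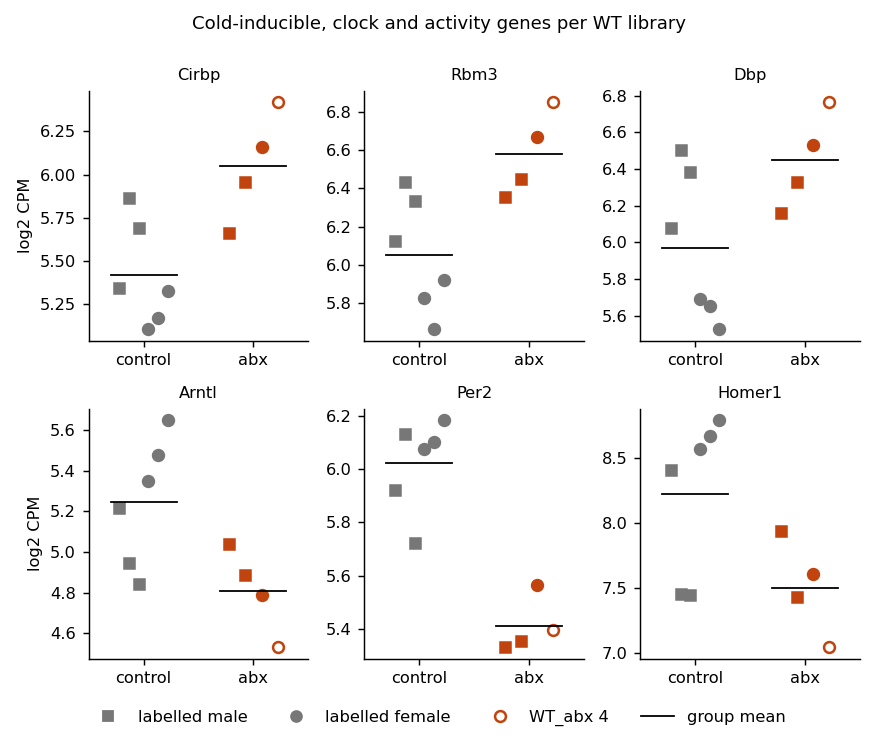
Log2 CPM (y axis) of Cirbp, Rbm3, Dbp, Arntl, Per2 and Homer1 in each WT control and abx library. Squares are labelled male, circles labelled female, the open circle is the library labelled WT_abx 4 and lines are group means. Per2 separates the groups; in the other 5 genes the female controls lie farther from the abx libraries than most male controls do.

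Markers of cortical layers also divided the controls by labelled sex. Over both labelled sexes together, all 16 deep layer markers had positive folds (median 0.46) and all 12 upper layer markers negative ones (median -0.28). At an unadjusted p under 0.05, 1 deep marker, Ntsr1, was higher and 1 upper marker, Mdga1, lower. Those counts were 4 and 4 without WT_abx 1, and 0 to 3 and 0 to 2 without any other library. The deep layer level was 0.04, -0.10 and 0.18 in the male controls, -0.41, -0.69 and -0.49 in the female controls, and -0.01, 0.31, 0.43 and 0.18 in the abx libraries. The female controls thus stood apart from all other 7 libraries. Ntsr1, a receptor gene of layer 6 neurons, had control values of 1.96 to 2.72 log2 CPM (median 2.24) and abx values of 2.45, 3.05, 2.74 and 3.32 (log2 fold 0.60 ± 0.29, or 0.43 ± 0.31 without the library labelled WT_abx 4). Mdga1, an adhesion regulator of upper layers, ran from 3.39 to 5.44 log2 CPM in the 6 controls, with a median of 5.02, and read 4.60, 3.65, 3.88 and 3.60 in the 4 abx libraries (log2 fold -0.76 ± 0.32, or -0.61 ± 0.35 without the library labelled WT_abx 4). The medians without the library labelled WT_abx 4 were 0.39 and -0.20. The part of the layer levels in the ER, heat shock, activity and clock values above was not tested.

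Markers of other cell types had few members at an unadjusted p under 0.05, and the library labelled WT_abx 4 was above all 9 other libraries in several lists. Its meningeal fibroblast level was 2.36, against -1.89 to 1.16 in controls and -0.93 to 0.41 in the other abx libraries, and its choroid plexus level was 2.36, against -0.59 to 0.80 and -0.82 to -0.33. All 16 meningeal markers had positive folds with it (median 0.43) and 3 of 16 without it (median -0.23). The meningeal median also rested on WT_control 5, without which it was 0.04 with 10 positive folds, and on WT_abx 2, without which it was 0.89. Summed over the list, meningeal markers came to 1140 CPM in the library labelled WT_abx 4, 90.8 to 495 in the controls. Pericyte and smooth muscle markers had 13 of 14 positive folds with it (median 0.29) and 10 without it (median 0.07), and the median was 0.11 without WT_control 5. The pericyte and smooth muscle level of the library labelled WT_abx 4 was 0.86, against a highest value of 0.35 in the others. Its endothelial level was 0.47 (others at most 0.28), its perivascular macrophage level 1.29 (0.90) and its ependymal level 1.10 (0.51). Astrocyte markers had 0 higher and 0 lower of 17, with a median of 0.01 and of -0.09 without that library. Oligodendrocyte markers had 0 and 0 of 20, with medians of 0.18 and 0.06, and their precursor markers 0 and 2 of 10, with 0 and 0 without it. Microglia markers had 0 and 1 of 20 (medians 0.01 and -0.03). Endothelial markers had 1 and 0 of 20, and 0 and 0 without it, with medians of 0.05 and -0.07. Choroid plexus markers had 0 and 1 of 7, with a median of -0.09, and of 0.23 without WT_abx 2 and 0.21 without WT_abx 3. Interneuron markers had 0 of 14 and striatal markers 0 of 15. The part of the meningeal and choroid levels in the ribosomal count, which moved most when that library was left out, was not tested.

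**Figure D4:**
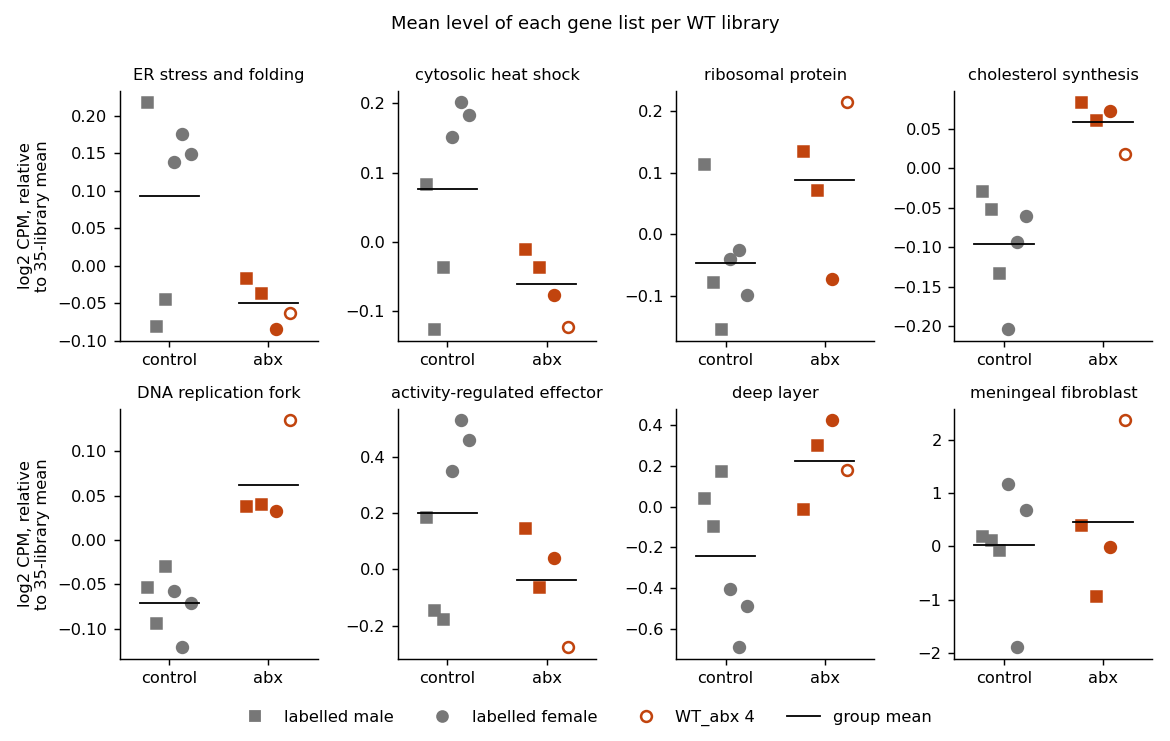
Level of 8 gene lists in each WT library, as the mean of log2 CPM minus each gene's mean over 35 libraries (y axis). Symbols are as for the genes above: squares male, circles female, open circle the library labelled WT_abx 4, lines the group means. Cholesterol synthesis and DNA replication fork levels separate the groups, the 3 female controls are low for deep layer markers, and the library labelled WT_abx 4 is at 2.36 for meningeal markers. The replication fork list includes Tipin and was chosen with its value known.

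Gene groups that concern the immune state and the gut had few members at an unadjusted p under 0.05. Innate sensing and NF-kB genes had 1 higher and 0 lower of 25 (median 0.01), Tlr9 (log2 fold 0.45 ± 0.20), and 0 and 1 without the library labelled WT_abx 4, with 7 positive folds and a median of -0.08. Interferon-stimulated genes had 1 higher and 2 lower of 37 (median -0.02), and without the library labelled WT_abx 4 they had 0 and 3 (median -0.20). Of 11 measured genes for short-chain fatty acid receptors, transport and acetate use 1 was higher: Slc16a1, a transporter of lactate and other monocarboxylates that cells of the vessel wall hold in quantity. Slc16a1 ran from 4.44 to 4.62 log2 CPM in the 6 controls, with a median of 4.49, and read 4.93, 4.72, 4.67 and 5.23 in the 4 abx libraries, all above the controls (log2 fold 0.37 ± 0.13, and 0.25 ± 0.14 without the library labelled WT_abx 4, where it no longer reached that p). Serotonin and kynurenine genes had 1 higher of 20, Maoa, which degrades serotonin: Maoa read 5.10, 5.05, 5.19 and 5.41 log2 CPM in the 4 abx libraries, against 4.67 to 5.06 (median 4.90) in the 6 controls (log2 fold 0.30 ± 0.09, or 0.22 ± 0.09 without the library labelled WT_abx 4). Glucocorticoid-responsive genes had 0 of 25, and histone acetyltransferases and deacetylases 0 higher and 1 lower of 26.

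Because some genes and the cortical layer levels divided the controls by labelled sex, the effect was also estimated within each sex from a fit of 16 group-by-sex means, an analysis chosen after seeing the data. In libraries labelled male, 2 abx against 3 controls, 0 genes passed the threshold, and at an unadjusted p under 0.05 there were 220 higher (1.48%) and 383 lower (2.58%). In those labelled female, again 2 against 3, 47 genes passed (0.316%), 18 higher and 29 lower, and 924 were higher (6.21%) and 1054 lower (7.09%) at an unadjusted p under 0.05. The 2 abx libraries of that comparison are WT_abx 3, with Y-linked genes at the male level, and the library labelled WT_abx 4. Without the latter 0 genes passed (smallest adjusted p 0.107, limma), and without WT_abx 3 there were 278. Each of those fits sets 1 abx library against 3 controls, and that library is assumed to vary like the other groups, which supply the spread. A fit of the female-labelled libraries alone gave 24 genes, not 0, without the library labelled WT_abx 4, on the same single abx library. The difference between the sexes passed the threshold in 0 genes, with a smallest adjusted p of 0.573 by limma and 1024 genes at an unadjusted p under 0.05. A difference of the effect between the labelled sexes is therefore not shown.

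The genes that passed within the female label included clock, cold-inducible, synaptic and chaperone genes already described. Arntl fell by 0.83 on the log2 scale (adjusted p = 0.0166, limma), and Dbp rose by 1.02 (adjusted p = 0.0277). Cirbp rose by 1.09 and Rbm3 by 0.96, with SEs of 0.20 and 0.19. Within the male label the same 4 genes had folds of -0.04 ± 0.14, -0.07 ± 0.19, 0.18 ± 0.20 and 0.10 ± 0.19. Homer1 fell by 1.35 in the female label and had -0.09 ± 0.27 in the male, and Hsph1, an Hsp70 exchange factor, fell by 0.70 and had -0.01 ± 0.14. Since 0 genes passed there, none of these calls was kept without the library labelled WT_abx 4.

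Several leading genes had folds of the same sign in both sexes. They were picked for a small p over the same libraries, a choice that favours equal signs, so the agreement is not a separate test. Tipin had 0.67 ± 0.16 in the male label and 0.46 ± 0.16 in the female, and Derl3 -1.18 ± 0.36 and -1.21 ± 0.36. Ago3 had -0.55 ± 0.14 and -0.66 ± 0.14, and Dnajc1 -0.40 ± 0.12 and -0.54 ± 0.12, both past the threshold in the female label (adjusted p = 0.0433 and 0.048 by limma). Per2 had -0.58 ± 0.28 and -0.64 ± 0.28. By list, the ER group had 3 lower members in the male label (median 0.01) and 21 in the female (median -0.20). Heat shock chaperones had 0 and 17, and activity-regulated effectors 0 and 13. In the male label the medians of these lists were 0.03 and 0.10, with 24 positive folds of 41 and 20 of 26. Without the library labelled WT_abx 4, which leaves 1 abx library, the female medians of the ER, heat shock and effector lists were -0.19, -0.16 and -0.34. With it they were -0.20, -0.22 and -0.53. Ribosomal proteins had 29 higher in the male label (median 0.20) and 4 in the female (median 0.13). Without the library labelled WT_abx 4 their female median was -0.02, with 34 positive folds of 82. Immediate early genes had a median of 0.15 in the male label, with 26 positive folds of 33, and -0.59 in the female, with 3. Deep layer markers had medians of 0.055 and 0.875, with 13 and 16 positive folds of 16. Upper layer markers had medians of -0.005 and -0.478, with 6 and 12 negative folds of 12. The difference between the sexes was not tested for the lists.

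**Figure D5:**
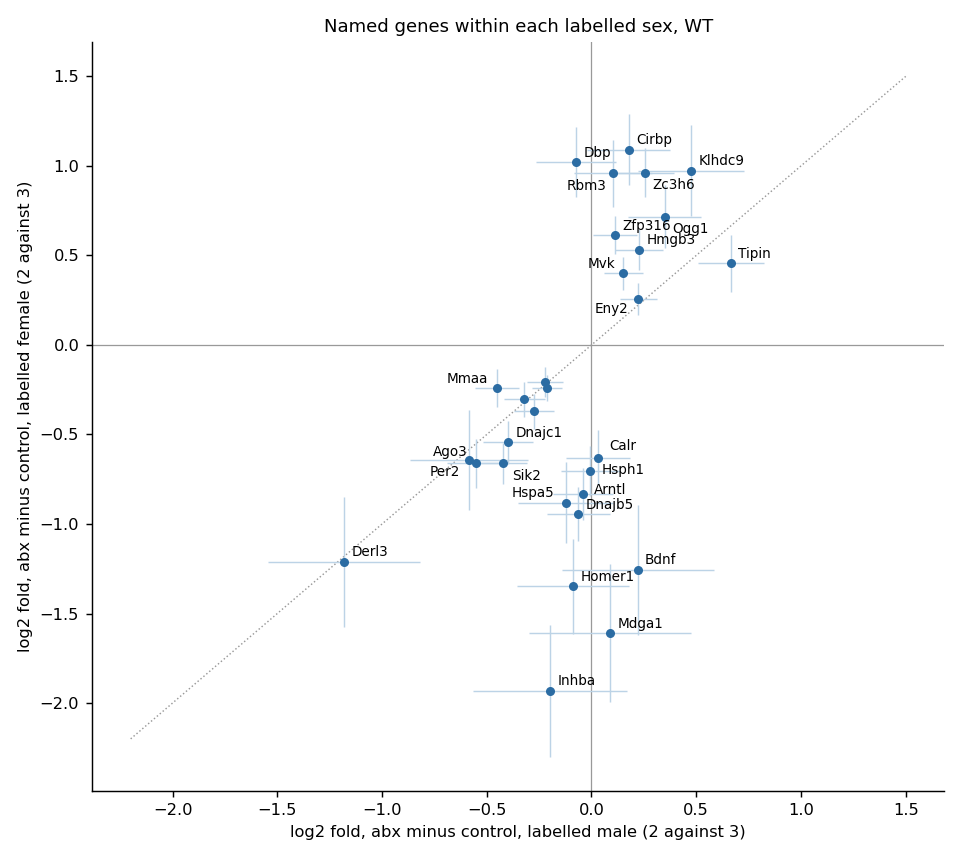
Log2 folds of 30 named genes (abx minus control, with SE bars) in WT libraries labelled male (x axis) and female (y axis), 2 against 3 in each. The dotted line marks equal folds; Tipin, Ago3, Dnajc1 and Derl3 lie near it, whereas Dbp, Cirbp, Arntl, Homer1 and Inhba have male folds near 0. Some of these genes were chosen for their female folds, and others for a small p over both sexes together.

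The same treatment contrast was available in libraries that the WT comparison does not share. In KO mice, 3 abx against 4 control libraries, 245 genes were higher (1.65%) and 246 lower (1.65%) at an unadjusted p under 0.05, and 2 genes (Gm2897 and Gm2260, lower) passed the threshold by limma. No gene passed there without KO_control 1, 2 or 3 or KO_abx 1 or 2, with RIN as a covariate, with voom weights or with only the groups compared, and 1 passed without KO_control 4 or KO_abx 3. In WT mice given acetate, 4 libraries with abx against 5 without (2 of them, WT_acetate 2 and 5, with intermediate Shank3, and WT_acetate 2, 4 and 5 with Y-linked genes against the sex label), 303 were higher (2.04%) and 289 lower (1.94%), and 0 passed. No gene passed for a difference of the antibiotic effect between WT and KO (smallest adjusted p 0.073, limma) or between WT without and with acetate (0.957). Of the 1345 genes with an unadjusted p under 0.05 in WT, 74.0% had the same sign in KO, beside 58.7% of all genes, and 63.1% had the same sign on acetate, beside 54.7%. Across the 14870 genes, which are not independent, Pearson's r of the folds was 0.216 with KO and 0.064 on acetate.

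A fold of the same sign at an unadjusted p under 0.05 was shared by 75 genes with KO, which is 5.58% of the WT genes and 15.3% of the KO genes. With the acetate background 75 were shared (12.7% of that list). Of all genes, 4.08% were higher and 4.96% lower in WT at that p. The shares of all genes were 1.65% and 1.65% in KO, and 2.04% and 1.94% on acetate. Whether the overlaps exceed what these shares give was not tested. The 4 genes in all 3 comparisons were Sumo3, Omg, Fmnl1 and Cmc2, named after their values were seen. Sumo3, a small protein modifier, ran from 6.37 to 6.49 log2 CPM in the 6 controls, with a median of 6.45, and read 6.53, 6.6, 6.73 and 6.66 in the 4 abx libraries, all above the controls. Its log2 folds were 0.19 ± 0.05 in WT, 0.18 ± 0.06 in KO and 0.13 ± 0.06 on acetate, and those of Omg were 0.21 ± 0.07, 0.18 ± 0.09 and 0.17 ± 0.08. Fmnl1, a formin that shapes actin, had control values of 7.06 to 7.76 log2 CPM (median 7.55) and abx values of 7.33, 6.82, 6.80 and 6.85, with folds of -0.51 ± 0.16, -0.43 ± 0.19 and -0.37 ± 0.17. Cmc2, a mitochondrial assembly factor, had -0.30 ± 0.12, -0.36 ± 0.15 and -0.27 ± 0.13.

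For the leading genes of the WT comparison the other backgrounds gave these log2 folds. Tipin had 0.04 ± 0.13 in KO and 0.10 ± 0.11 on acetate, Ago3 -0.15 ± 0.15 and 0.01 ± 0.13, Sik2 -0.05 ± 0.14 and 0.01 ± 0.13, and Derl3 0.16 ± 0.31 and -0.44 ± 0.27. None of these 4 genes reached an unadjusted p under 0.05 in either. Among ER chaperones, Hspa5 had -0.45 ± 0.21 and -0.29 ± 0.18, and Creld2 -0.22 ± 0.19 and -0.37 ± 0.17. Of the 48 ER genes, 36 had negative folds in KO (median -0.09, 3 lower) and 34 on acetate (median -0.05, 3 lower). Of the 17 genes with the ER stress element 14 were negative in KO (median -0.17) and 13 on acetate (median -0.15). Heat shock chaperones had 35 and 30 negative folds of 41. Ribosomal proteins had 38 and 49 positive folds of 82, cholesterol genes 18 and 7 of 25, and deep layer markers 8 and 12 of 16. Per2 had 0.27 ± 0.29 in KO and -0.63 ± 0.25 on acetate, and Dbp 0.66 ± 0.22 and -0.39 ± 0.20.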

How the data were processed

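Bulk RNA of mouse medial prefrontal cortex was sequenced in 35 libraries. The authors deposited log2 CPM values (voom, with 0.5 added to each read count) for 14870 genes, and the submitters' processing notes name limma without a version. The aligner, counter and gene model were not given in the sources used here. Read totals were recovered from the value steps, and 100% of values came out whole within 0.01. With limma 3.58.1 in R 4.3.3 (trend), 8 group means and labelled sex were fitted over all 35 libraries. Tests were two-sided, with Benjamini-Hochberg adjustment over all genes and a threshold of 0.05, and were checked on simulated data. Library numbers follow record order and pair nothing. Named genes were the 12 of smallest p per direction, 6 per direction without the library labelled WT_abx 4, and 3 per list described. Some genes that the rule selects are not reported here. Other named genes were chosen after their values were seen. Members and lists were chosen with earlier results of these data known. Gene positions cover 97.1% of genes. Alternatives dropped libraries or the sex term, added RIN or voom weights, and changed scaling, filter or spread estimate. The female-only fit, the removal of 5 libraries, the within-sex fit and the promoter search were chosen after seeing the data.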

Additional observations from a re-analysis of the deposited data

Results flagged for a closer look

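In 214 groups tested, each of the 4 abx or the 6 control libraries, 10 had 1 library far from the others by Dixon's test. Chance alone gives about 1 in 20, and the count was near that share. The library labelled WT_abx 4 stood apart for Acr, at 4.56 log2 CPM with the other abx libraries at -0.14 to 0.45. It also stood apart for the choroid plexus level, 2.36 against -0.82 to -0.33, for the DNA replication fork level, 0.135 against 0.033 to 0.041, and for Hsph1, 7.74 against 8.22 to 8.26. WT_abx 1 was high for Shank2, at 8.12 against 7.67 to 7.74, and for Fmnl1, at 7.33 against 6.80 to 6.85. WT_abx 2 was low for Zfp362, at 4.62 against 4.76 to 4.79, and for the clock level, at -0.086 against 0.057 to 0.074. WT_abx 3 was low for Ahsa2, at 4.57 against 4.90 to 4.93. Among controls, WT_control 5 was low for the pericyte and smooth muscle level, at -0.513 against 0.065 to 0.274.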

How the results depend on the processing

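The count of 0 genes past the threshold, with and without the library labelled WT_abx 4, became 150 and 24 in libraries labelled female, a choice made after seeing the data. The 24 rest on WT_abx 3 alone, whose Y-linked genes are at 93.0% of the male level, with the spread taken from the other groups. Both counts ranged from 0 to 1 when each library was left out in turn, and were 0 under the other alternatives. With all 4 abx libraries in the start fit, the 1 gene was Tet3, without WT_abx 1. With the library labelled WT_abx 4 already out, 1 gene passed without WT_control 3. In KO the 2 genes became 0 with only the groups compared, in either labelled sex alone, with RIN as a covariate and with voom weights, and ranged from 0 to 1 without single libraries. On acetate the 0 genes became 19 in the female label, where 1 library stands against 1, the WT_acetate one (5) having intermediate Shank3 (8.08) and Y-linked genes at 32.5%, and were 0 without any single library. The difference between WT and KO gave 1 gene after quantile normalization and 0 to 1 without single libraries, and that between WT without and with acetate gave 8 in the female label, on the same single acetate libraries, and 0 without single libraries. The 1345 genes at an unadjusted p under 0.05 became 447 without 5 libraries (WT_abx 3 and 4, WT_acetate 2, 4 and 5), 494 in the male label and 2230 in the female label, with a range of 967 to 1587 without single libraries. With no difference anywhere 744 would be counted, and the counts of 447 and 494 were below that number. Of 1863 folds of 81 named genes under an alternative, 12 had the opposite sign. In the male label these were Calr 0.033, Hsp90b1 0.02, Bdnf 0.22, Fosb 0.15, Arc 0.26, Shank3 0.045, Dbp -0.074, Mdga1 0.088 and Acr -0.41. The fold of Acr was also -0.012 without the library labelled WT_abx 4 (-0.012 to 1.43 without single libraries), -0.051 without 3 libraries of intermediate Shank3 and -0.24 without the 5 libraries. The cause of these changes was not tested. No paired analysis was possible because the library numbers come from record order and carry no pairing.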
